A study of Rattus norvegicus with 8 samples.

Results

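The small leucine-rich proteoglycans asporin (Aspn), decorin (Dcn), lumican (Lum), biglycan (Bgn), fibromodulin (Fmod), osteoglycin (Ogn), prolargin (Prelp) and osteomodulin (Omd) were followed in rat aortic smooth muscle cells. The members were every probe set that GEO's array annotation gives to 1 of these 8 gene symbols, which yielded 12 of the 31099 probe sets on the array. Ogn has 4 probe sets, Aspn has 2, and each of the other 6 genes has 1. A probe set is a group of short probes that is summarised to 1 log2 value per array. The Ogn probe sets 1376749_at and 1390450_a_at are annotated to the same expressed sequence tag and are not independent of each other.

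The cells had been isolated by digestion of thoracic aortas (male Sprague-Dawley rats, age not given) and kept for 2 passages in M199 medium with 10% serum. All cells were transfected for 48 h, either with a non-targeting control siRNA (siNTC) or with an siRNA against rat Giver (siGiver), a long non-coding RNA expressed in these cells. A 3 h exposure followed, either to angiotensin II (Ang II), a peptide hormone that constricts vessels, at 100 nM or to the same volume of PBS. Each of the 4 combinations was measured on 2 Affymetrix arrays, 8 in all, and the comparisons ask what Giver siRNA, Ang II and both together did to transcript levels. No untransfected cells are among these groups. How many siRNA sequences were used, and whether replicate arrays stem from different cultures, is not stated in the labels. The p-values therefore rest on array-to-array spread alone, part or all of which may be technical.

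Small leucine-rich proteoglycans are secreted matrix proteins built from leucine-rich repeats, most of which carry chondroitin, dermatan or keratan sulfate chains. They bind collagen fibrils and tune fibril thickness and spacing, and several also bind TGF-beta family ligands or cell surface receptors. Aspn, Dcn and Bgn belong to class I of the family, Lum, Fmod, Prelp and Omd to class II, and Ogn to class III. In the arterial wall Bgn, Dcn and Lum are abundant products of smooth muscle cells and adventitial fibroblasts.

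The 2 arrays of each group correlated at r = 0.998 across probe sets, and array medians lay between 6.15 and 6.19 log2. Using limma, group means were fitted for the 21729 probe sets whose mean over all arrays reached the 30th percentile (4.81 log2, called the filter value here), and a difference was called where the adjusted p was under 0.05. All 12 proteoglycan probe sets passed this filter. Differences are on the log2 scale with the standard error (SE) of the fit, and adjusted p-values are limma's with Benjamini-Hochberg adjustment over all 21729 probe sets. Levels of different probe sets are not comparable with each other. All 9 smooth muscle markers on the list used passed the filter, and none of the 6 endothelial markers on the array did. Of 8 macrophage markers, Ptprc, Csf1r, Adgre1 and C1qb lay below it.

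Aspn encodes asporin, which binds collagen and TGF-beta family ligands and carries a run of aspartate residues near its amino terminus. Aspn transcript was far lower in siGiver cells than in siNTC cells, with and without Ang II. Probe set 1380726_at read 6.52 and 6.56 on the siNTC PBS arrays, 6.46 and 6.16 on the siNTC Ang II arrays, 3.68 and 3.57 on the siGiver PBS arrays, and 3.78 and 3.81 on the siGiver Ang II arrays. Every siNTC array stood above every siGiver array, and both siGiver groups lay below the filter value. Probe set 1381504_at read 6.16 and 6.22 in siNTC PBS, 6.24 and 6.19 in siNTC Ang II, 4.25 and 4.06 in siGiver PBS, and 3.83 and 3.84 in siGiver Ang II. The arms did not overlap here either.

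In PBS the Aspn difference between siGiver and siNTC cells was -2.91 ± 0.097 (SE, 2 arrays per group) on 1380726_at, with an adjusted p of 2.19e-05 from limma. On 1381504_at it was -2.03 ± 0.071 (limma adjusted p 2.32e-05). With Ang II the differences were -2.52 ± 0.097 and -2.38 ± 0.071 on the same probe sets (limma adjusted p 1.39e-05 and 7.23e-06). No detection calls were used here, so the siGiver level was also set to the filter value to give a lower bound. On that footing Aspn was at least 3.32-fold lower in PBS and at least 2.83-fold lower with Ang II by 1380726_at, and at least 2.60-fold and 2.65-fold lower by 1381504_at. Both probe sets were called in both treatments under every alternative setting that tested them, including with any 1 array left out. They passed the filter through their siNTC arrays, with means over all arrays of 5.07 on 1380726_at and 5.10 on 1381504_at. Both siGiver group means lay below the filter value on each probe set. The alternative with a higher filter left both probe sets out, so it could not test these calls.

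Omd encodes osteomodulin, also called osteoadherin, a keratan sulfate proteoglycan known from bone that binds cells and collagen. Its probe set read 6.85 and 7.0 in siNTC PBS, 6.81 and 6.80 in siNTC Ang II, 6.08 and 6.23 in siGiver PBS, and 6.25 and 6.29 in siGiver Ang II. All 4 siGiver arrays were lower than all 4 siNTC arrays. The difference was -0.77 ± 0.072 in PBS (limma adjusted p 0.000433) and -0.54 ± 0.072 with Ang II (limma adjusted p 0.00121), calls that held with any 1 array left out.

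Ogn encodes osteoglycin, also called mimecan, a collagen-binding proteoglycan of vessel wall, bone and cornea. On 1376749_at the arrays read 10.15 and 10.09 in siNTC PBS, 9.69 and 9.61 in siNTC Ang II, 9.70 and 9.75 in siGiver PBS, and 9.68 and 9.76 in siGiver Ang II. The siNTC PBS arrays stood above the other 6, and the siGiver Ang II arrays overlapped both remaining groups, while the siNTC Ang II arrays lay just below the siGiver PBS arrays. On 1383263_at the readings were 10.21 and 10.22 in siNTC PBS, 10.00 and 9.99 in siNTC Ang II, 10.00 and 10.03 in siGiver PBS, and 10.00 and 10.00 in siGiver Ang II. On the other Ogn probe sets siNTC PBS was also the highest group, with means of 10.41 ± 0.15 (SD, n = 2) in siNTC PBS on 1385248_a_at against 10.17 to 10.32 in the other groups, and 9.50 ± 0.0049 on 1390450_a_at against 9.15 to 9.20.

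Compared in PBS, Ogn was lower in siGiver cells on 3 of its 4 probe sets, by -0.39 ± 0.058 on 1376749_at (limma adjusted p 0.00259), -0.20 ± 0.046 on 1383263_at (0.0169) and -0.30 ± 0.076 on 1390450_a_at (0.0238). The brightest Ogn probe set, 1385248_a_at, stood at -0.20 ± 0.078 and did not pass (limma adjusted p 0.0961), and it passed without siNTC PBS replicate 1 at -0.31 (limma adjusted p 0.0288) and stood at -0.095 without siNTC PBS replicate 2 (limma adjusted p 0.398). The call on 1376749_at held with any 1 array left out. That on 1383263_at was lost without any 1 of the 4 PBS arrays, with values from -0.21 to -0.19 and limma adjusted p from 0.0541 to 0.0848. That on 1390450_a_at was lost without siNTC PBS replicate 1 (-0.30), siNTC PBS replicate 2 (-0.30) or siGiver PBS replicate 1 (-0.22). With Ang II no Ogn probe set was called, and the differences ran from 0.0025 to 0.15.

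**Figure D1:**
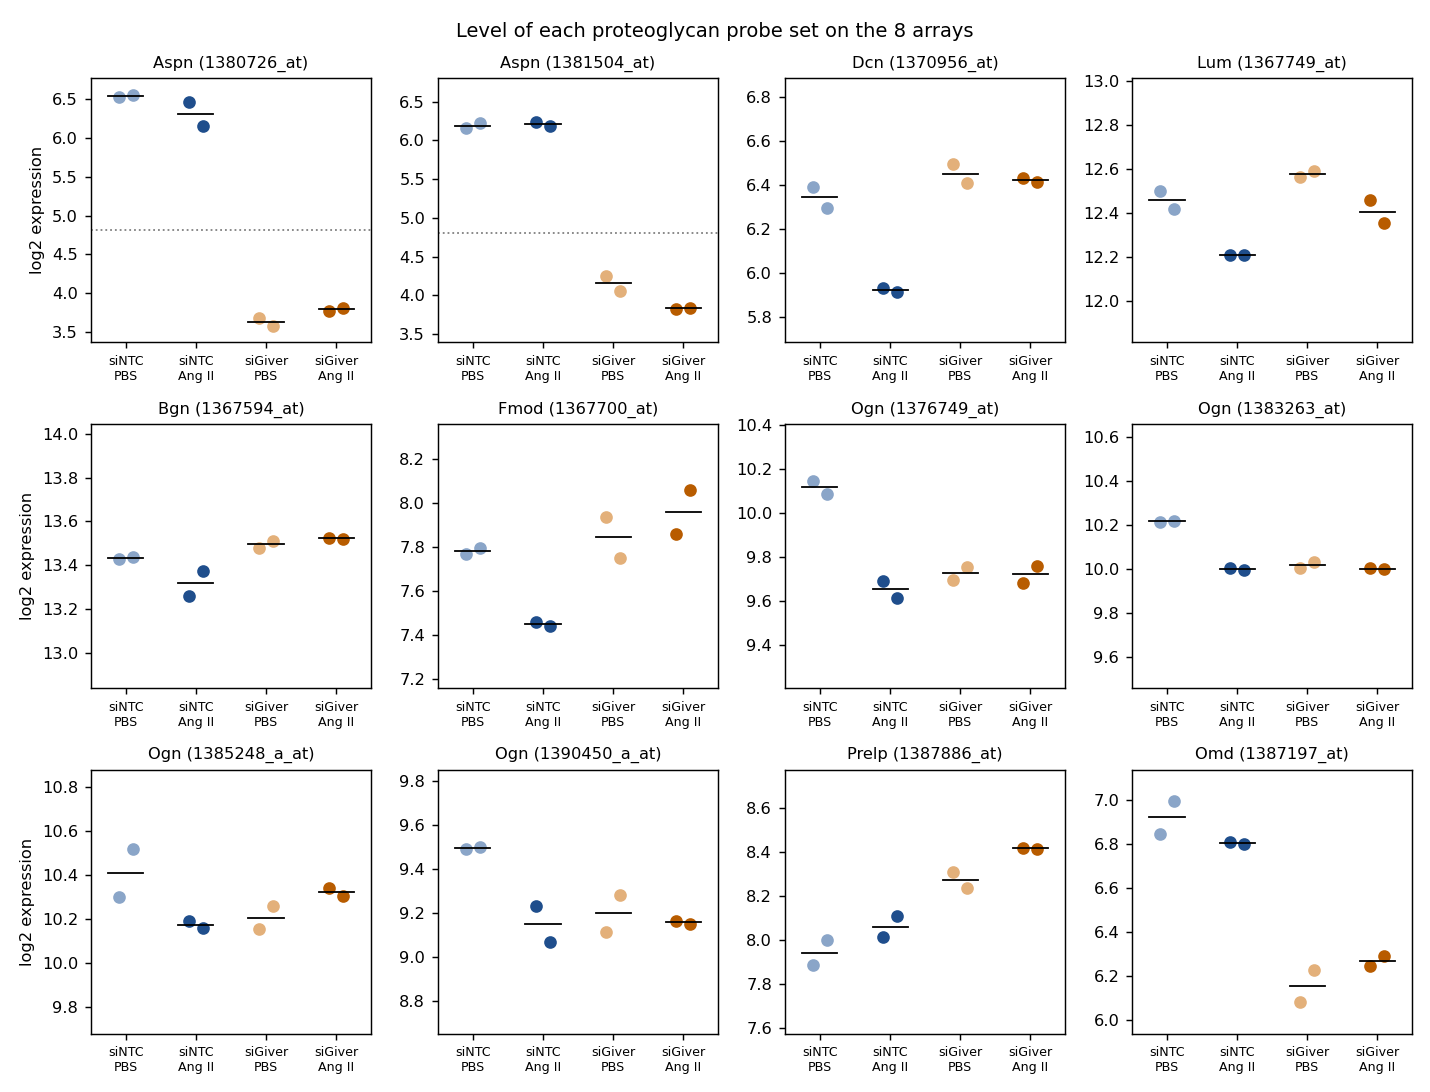
Log2 expression (vertical axis) of each of the 12 probe sets on the 8 arrays, with points for arrays and a line at each group mean. Each panel spans 1.2 log2 units, except the 2 Aspn panels, which span 3.4 and show the filter value of 4.81 as a dotted line, and the siGiver points of Aspn all lie below that line.

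Ogn, Omd and Aspn lie next to one another in that order on rat chromosome 17 (RefSeq annotation of GRCr8), with no other protein-coding gene between them, inside the span of Cenpp, a centromere protein gene. Sequence from their RefSeq promoters is shown because these neighbours had called probe sets that were lower in siGiver cells in PBS, by differing amounts. The 250 bases before 1 start site per gene were taken from RefSeq, and of these the bases outside the annotated gene span are printed, 5′ to 3′ on the minus strand of GRCr8. They cover chr17:15259168-15259245 for Ogn (78 bases), chr17:15274871-15275120 for Omd (250 bases) and chr17:15310568-15310719 for Aspn (152 bases). Capitals mark matches to the motifs named in the next paragraph.
Ogn: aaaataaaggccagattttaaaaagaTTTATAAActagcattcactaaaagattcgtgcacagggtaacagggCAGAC
Omd: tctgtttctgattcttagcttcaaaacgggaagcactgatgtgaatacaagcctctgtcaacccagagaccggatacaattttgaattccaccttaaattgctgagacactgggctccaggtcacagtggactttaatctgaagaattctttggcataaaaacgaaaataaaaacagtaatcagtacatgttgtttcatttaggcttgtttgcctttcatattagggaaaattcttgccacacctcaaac
Aspn: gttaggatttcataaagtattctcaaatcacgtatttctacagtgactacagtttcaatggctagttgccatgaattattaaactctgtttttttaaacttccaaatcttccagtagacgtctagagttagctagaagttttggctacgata

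The full 250 bases of each promoter were searched on both strands for 10 motifs. These were the core promoter box TATAAA, the AP-1 site with the letters TGACTCA, the cyclic AMP element TGACGTCA (CRE), the NBRE of Nr4a receptors with the letters AAAGGTCA, and the SMAD element CAGAC. The others were the GAS element of STAT factors, TTCNNNGAA, the CArG box, the NF-kB site, the E-box with the letters CACGTG, and the TEAD site with the letters GGAATG. Ogn held a TATAAA match, overlapping a match on the other strand, a CAGAC match and, in the part not printed, a GGAATG match, while Omd and Aspn held none of the 10. In the 33469 promoters of the same length, TATAAA was found in 12.9%, CAGAC in 42.9% and GGAATG in 12.1%. Lum and Fmod, which also have a promoter in the table, both held CAGAC, and Fmod held a GAS match. None of these 5 promoters held an AP-1 match (4.05% of all promoters), a CRE (1.59%), an NBRE (1.24%), a CArG box (1.5%), the NF-kB site (0.0956%) or the E-box (5.59%). A match is a run of letters and was not tested as a site.

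In this stretch of chromosome 17 the siRNA difference was called for Aspn and Omd in both treatments and for Ogn in PBS on 3 of its 4 probe sets, the brightest not among them. By the brightest probe set of each gene, Cenpp stood at 0.21 ± 0.068 in PBS and 0.19 ± 0.068 with Ang II (limma adjusted p 0.0568 and 0.0665). Ecm2, a matrix protein of related structure beyond Aspn, stood at 0.10 ± 0.054 and 0.04 ± 0.054 (limma adjusted p 0.212 and 0.627). Nol8 stood at -0.01 and -0.02 and Ippk at -0.10 and 0.06. Iars1 stood at -0.06 ± 0.087 in PBS and 0.26 ± 0.087 with Ang II (limma adjusted p 0.641 and 0.0504). None of these was called. These neighbours were taken up after the values of the proteoglycans had been seen.

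**Figure D2:**
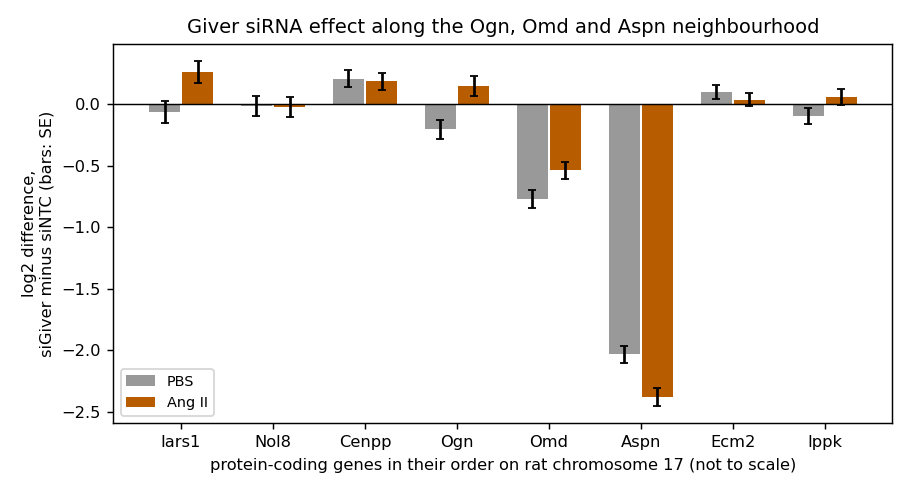
Log2 difference between siGiver and siNTC cells (vertical axis, bars with SE) for measured protein-coding genes in their order on rat chromosome 17, by each gene's brightest probe set, in PBS and with Ang II. Aspn reaches -2.03 and -2.38 and Omd -0.77 and -0.54, while Cenpp, Nol8, Iars1, Ecm2 and Ippk lie between -0.10 and 0.26.

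Prelp encodes prolargin, which anchors basement membranes to the connective tissue through heparan sulfate and collagen. It was higher in siGiver cells in both treatments. Its arrays read 7.89 and 8.0 in siNTC PBS, 8.01 and 8.11 in siNTC Ang II, 8.31 and 8.24 in siGiver PBS, and 8.42 and 8.42 in siGiver Ang II. All siGiver arrays stood above all siNTC arrays. The difference was 0.33 ± 0.063 in PBS (limma adjusted p 0.00770) and 0.36 ± 0.063 with Ang II (limma adjusted p 0.00421). Without siGiver PBS replicate 1 the PBS difference was 0.29 and no longer called (limma adjusted p 0.0510).

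Counted by probe set, 6 of the 12 were lower and 1 was higher in siGiver cells in PBS, where 27.8% of all probe sets tested were called, 12.3% higher and 15.5% lower. Aspn and Ogn hold 6 of the 12, so genes were also counted by their brightest probe set. Of the 8 genes, Aspn and Omd were then lower and Prelp was higher, against 16.6% lower and 13.9% higher among all genes, and these shares are near that background. The median difference was -0.20 over the 12 probe sets (-0.0028 over all) and 0.063 over the 8 brightest ones (-0.0047 over all genes), so the sign depended on the way of counting.

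With Ang II present, 5 probe sets were higher and 3 lower in siGiver cells, where 35.7% of all probe sets were called, 17.1% higher and 18.6% lower. By brightest probe set, Aspn and Omd were lower and Dcn, Lum, Bgn, Fmod and Prelp were higher, 7 of 8 genes in all, against 22.2% lower and 17.9% higher among all genes. The median was 0.11 over the 12 probe sets (-0.014 over all) and 0.20 over the 8 brightest ones (-0.026 over all genes).

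**Figure D3:**
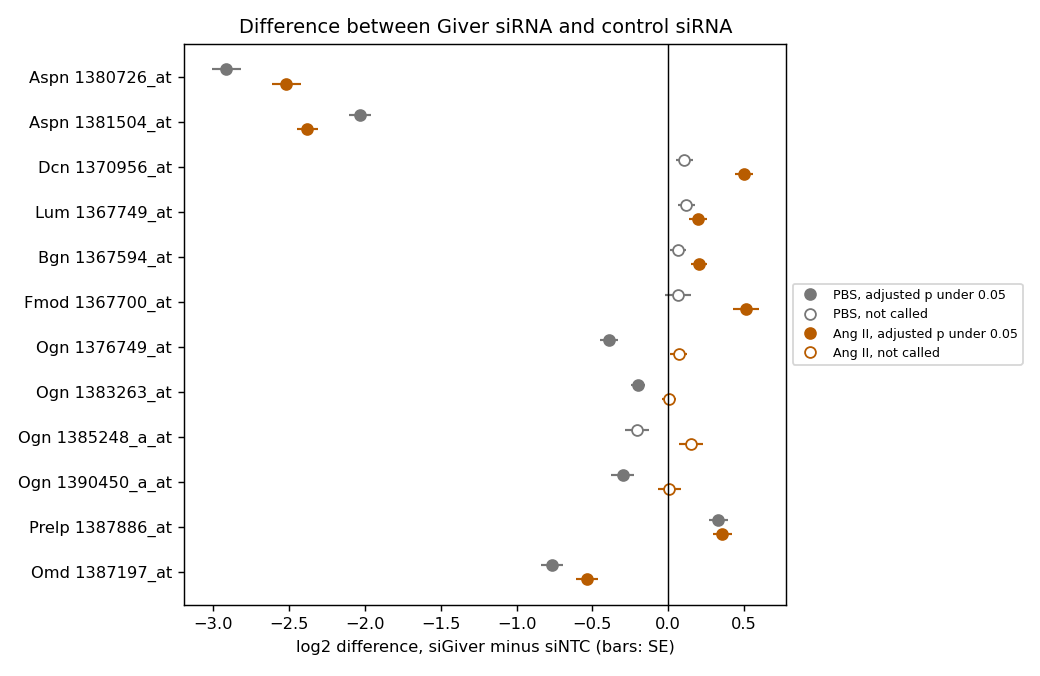
Log2 difference between siGiver and siNTC cells (horizontal axis, bars show SE) for each probe set in PBS and with Ang II, filled where the adjusted p was under 0.05. Aspn lies between -2.91 and -2.03, Omd at -0.77 and -0.54, and Dcn and Fmod are filled only with Ang II, at 0.50 and 0.51.

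Dcn encodes decorin, which coats collagen fibrils and sequesters TGF-beta. In siNTC cells Dcn fell with Ang II, from 6.39 and 6.30 on the PBS arrays to 5.93 and 5.91 on the Ang II arrays. In siGiver cells it read 6.49 and 6.41 with PBS and 6.43 and 6.41 with Ang II. The siNTC Ang II arrays stood below the other 6. The Ang II difference was -0.42 ± 0.057 in siNTC cells (limma adjusted p 0.0105) and -0.03 ± 0.057 in siGiver cells, where it did not pass and its 95% interval ran from -0.16 to 0.11. The siNTC call was lost without siNTC PBS replicate 1 (-0.37, limma adjusted p 0.0795), siNTC Ang II replicate 1 (-0.43, 0.0672) or siNTC Ang II replicate 2 (-0.41, 0.0849).

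Ogn also fell with Ang II in siNTC cells on 2 of its 4 probe sets, by -0.46 ± 0.058 on 1376749_at (limma adjusted p 0.00837) and -0.22 ± 0.046 on 1383263_at (0.0488). The other Ogn probe sets stood at -0.35 ± 0.076 and -0.23 ± 0.078 and did not pass. In siGiver cells the 4 differences ran from -0.04 to 0.12, none called. The 1376749_at call was lost without siNTC PBS replicate 1 (-0.43, limma adjusted p 0.0718) or siNTC Ang II replicate 2 (-0.43, 0.0738). The 1383263_at call was lost with any 1 of the 8 arrays left out, at -0.22 to -0.21 with limma adjusted p from 0.0800 to 0.212, with array medians subtracted (-0.21, 0.0750), with no filter (0.125) and with a replicate block (0.0790).

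Lum and Fmod showed values in the same direction in siNTC cells that did not pass. Lum encodes lumican and Fmod encodes fibromodulin, class II proteoglycans that bind overlapping sites on fibrillar collagen. Lum read 12.50 and 12.42 in siNTC PBS, 12.21 and 12.21 in siNTC Ang II, 12.56 and 12.59 in siGiver PBS, and 12.46 and 12.35 in siGiver Ang II. The siNTC Ang II arrays were the lowest here too. Its Ang II difference was -0.25 ± 0.058 in siNTC cells (limma adjusted p 0.0627) and -0.17 ± 0.058 in siGiver cells (0.0957). The Lum value in siNTC cells was called when 1 probe set per gene was tested (limma adjusted p 0.0380). It was also called with the filter raised to the 50th percentile (0.0264). With trended, robust moderation Lum was called in both arms, at limma adjusted p 0.000133 in siNTC cells and 0.00201 in siGiver cells.

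Fmod read 7.77 and 7.80 in siNTC PBS, 7.46 and 7.44 in siNTC Ang II, 7.94 and 7.75 in siGiver PBS, and 7.86 and 8.06 in siGiver Ang II. The siNTC Ang II arrays were the lowest, and the siGiver groups overlapped each other. Its Ang II difference was -0.33 ± 0.086 in siNTC cells (limma adjusted p 0.0827, and 0.0395 with the filter at the 50th percentile) and 0.12 ± 0.086 in siGiver cells (0.402).

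Bgn encodes biglycan, a collagen-binding proteoglycan that, once released from matrix, is a ligand of Toll-like receptors. It read 13.43 and 13.44 in siNTC PBS, 13.26 and 13.38 in siNTC Ang II, 13.48 and 13.51 in siGiver PBS, and 13.53 and 13.52 in siGiver Ang II. The Ang II difference was -0.11 ± 0.055 in siNTC cells and 0.03 ± 0.055 in siGiver cells, neither called. The siNTC Ang II arrays were the lowest of the 8.

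In all, 3 of 12 probe sets fell and none rose with Ang II in siNTC cells, where 3.92% of all probe sets were called, 2.32% higher and 1.60% lower. By brightest probe set Dcn was called, 1 of 8 genes, against 1.17% lower and 2.83% higher among all genes. The median over the 12 probe sets was -0.23, against -0.0016 over all, and 10 of the 12 values were below 0. Of these 12 values, 4 are from Ogn and 2 from Aspn. Over the 8 brightest probe sets the median was -0.18, against 0.0058 over all genes. In siGiver cells 1 of 12 was called lower, where 12.7% of all probe sets were called, 7.98% higher and 4.74% lower, and 5.12% of all genes were lower and 7.51% higher by brightest probe set. That call was Aspn 1381504_at at -0.32 ± 0.071 (limma adjusted p 0.0272), between 2 groups below the filter value, while the other Aspn probe set stood at 0.17 ± 0.097. It was lost without siGiver PBS replicate 1 (-0.23, limma adjusted p 0.119), siGiver Ang II replicate 1 (-0.32, 0.0898) or siGiver Ang II replicate 2 (-0.33, 0.0988), with no filter (0.0571), with trended, robust moderation (0.0589) and with both Aspn probe sets averaged (-0.079, 0.484). In siNTC cells the Aspn probe sets stood at -0.23 ± 0.097 and 0.02 ± 0.071 with Ang II, neither called. Prelp and Omd were not called with Ang II in either arm, with differences between -0.12 and 0.14.

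**Figure D4:**
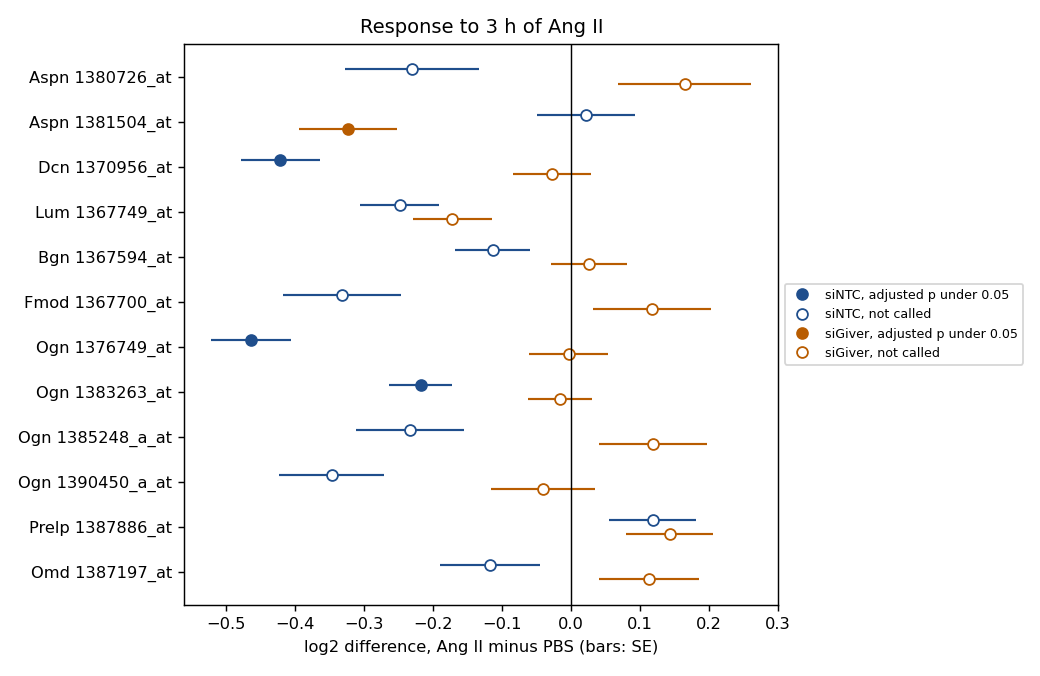
Log2 difference between Ang II and PBS (horizontal axis, bars show SE) for each probe set in siNTC and in siGiver cells, filled where the adjusted p was under 0.05. Dcn and 2 Ogn probe sets are filled on the negative side in siNTC cells, at -0.42, -0.46 and -0.22, and Aspn 1381504_at at -0.32 in siGiver cells.

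Under Ang II, the siNTC and siGiver cells differed in Dcn by 0.50 ± 0.057 (limma adjusted p 0.000579), in Fmod by 0.51 ± 0.086 (0.00319), in Bgn by 0.20 ± 0.055 (0.0241) and in Lum by 0.20 ± 0.058 (0.0328), all higher in siGiver cells. In PBS the same genes stood at 0.11, 0.06, 0.06 and 0.12 and none was called. The Dcn and Fmod calls held with any 1 array left out. The Lum call was lost without siNTC Ang II replicate 1 (0.20, limma adjusted p 0.111), siNTC Ang II replicate 2 (0.19, 0.115) or siGiver Ang II replicate 1 (0.14, 0.166), and with no filter (0.0682). The Bgn call was lost without siNTC Ang II replicate 1 (0.15, limma adjusted p 0.138), siGiver Ang II replicate 1 (0.20, 0.0874) or siGiver Ang II replicate 2 (0.21, 0.0833), and with no filter (0.0530). These comparisons share arrays with those above, so the values stand side by side and are not independent.

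The interaction, which subtracts the Ang II difference of siNTC cells from that of siGiver cells, tests whether the responses differed between the arms. It was called for 2 of 12 probe sets, where 3.36% of all probe sets were called, 2.03% higher and 1.33% lower (2.17% and 1.74% of genes by brightest probe set). These were Dcn at 0.39 ± 0.081 (limma adjusted p 0.0471) and Ogn 1376749_at at 0.46 ± 0.082 (0.0290). Both calls were lost with any 1 of the 8 arrays left out, with values from 0.35 to 0.44 for Dcn (limma adjusted p 0.0781 to 0.146) and from 0.42 to 0.50 for Ogn (0.0512 to 0.107). With no filter the limma adjusted p was 0.110 for Dcn and 0.0732 for Ogn, and with a replicate block it was 0.0589 and 0.0591. The Dcn call was also lost with trended, robust moderation (limma adjusted p 0.0713). The remaining Ogn probe sets stood at 0.20, 0.35 and 0.31 and Fmod at 0.45 ± 0.12, none called. Fmod was called with the filter at the 50th percentile (limma adjusted p 0.04995) and with trended, robust moderation (0.0151). That moderation also called the remaining Ogn probe sets and Bgn. Averaging the Ogn probe sets gave an interaction of 0.33, which was called (limma adjusted p 0.0369). For Aspn the probe sets disagreed in sign, at 0.40 ± 0.14 and -0.35 ± 0.10, and neither was called. Prelp stood at 0.02 ± 0.090 and Lum at 0.08 ± 0.081.

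For each gene the 11184 other named genes past the filter were ranked by the Euclidean distance between their 4 group means, each gene centred on its own mean. The genes nearest to Aspn were the transcription factor gene Foxq1 at a distance of 0.889 log2, Ints6l at 0.920 and the NADPH oxidase gene Nox1 at 0.931. Foxq1 stood at 8.44 and 8.49 in siNTC cells with PBS and Ang II, and at 6.63 and 7.17 in siGiver cells. Nox1 stood at 6.98 and 7.42 in siGiver cells, while Aspn 1381504_at stood at 4.16 and 3.83, both below the filter value. The Aspn distances were far larger than those given next for the other members, so no gene followed Aspn closely. The nearest to Dcn was Matn2, encoding the matrix adaptor protein matrilin 2, at a distance of 0.0162, followed by Spry3 and Ly75 at 0.0559 and 0.0572. Matn2 means were 9.18 and 8.76 in siNTC cells and 9.28 and 9.24 in siGiver cells. The nearest to Omd was Enpp1, encoding an enzyme that makes pyrophosphate, at 0.0485, with means of 11.37 and 11.30 in siNTC cells and 10.63 and 10.78 in siGiver cells. Nearest to the others were Vsig8 for Ogn (0.0242), Lmnb2 for Prelp (0.0182), Pcm1 for Lum (0.0160), Crtc1 for Fmod (0.0207) and Enpep for Bgn (0.00850). These genes were picked for likeness over 4 group means, so no test applies.

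Of 11 other members of the structural family on the list used, 8 are on the array and 4 passed the filter, namely Ecm2, Podn, Podnl1 and Tsku. None was called for Ang II in either arm or for the siRNA in PBS. Podn, encoding podocan, was higher in siGiver cells with Ang II by 0.32 ± 0.057 (limma adjusted p 0.00431), 1 of 4 against 17.9% of all genes higher.

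Genes whose products work with these proteoglycans are given as counts of genes by brightest probe set. Of 13 collagen genes whose products bind them, 4 fell and none rose with Ang II in siNTC cells (median -0.20, against 0.0058 over all genes), where 1.17% of all genes fell. These were Col14a1 at -0.45 ± 0.050, Col12a1 at -0.41 ± 0.051, Col11a1 at -0.48 ± 0.076 and Col6a3 at -0.70 ± 0.12. The Col14a1 call was lost without siNTC PBS replicate 1 or siNTC Ang II replicate 2, the Col12a1 call without those or siNTC Ang II replicate 1, and the other calls without any 1 siNTC array. With Ang II, 8 of the 13 were higher in siGiver than in siNTC cells and none was lower (17.9% of all genes higher, median 0.21 against -0.026). Col12a1 at 0.74 ± 0.051, Col6a3 at 1.25 ± 0.12, Col5a3 at 0.65 ± 0.067 and Col14a1 at 0.35 ± 0.050 led these. The Col3a1, Col6a1 and Col6a2 calls were lost in some fits with 1 array left out. Their values ran from 0.20 to 0.22, 0.14 to 0.25 and 0.21 to 0.30. In PBS 2 were higher and 2 lower (median -0.10), where 13.9% of all genes were higher and 16.6% lower. The interaction was called upward for 3 of the 13, against 2.17% of all genes. These were Col12a1 at 0.73 ± 0.072, Col14a1 at 0.47 ± 0.070 and Col5a1 at 0.40 ± 0.073. Only the Col12a1 call held with any 1 array left out.

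The enzymes that build chondroitin and dermatan sulfate chains, carried by Dcn and Bgn, were lower in siGiver cells more often than higher. Of 19 tested, 8 were lower and 1 was higher in PBS (median -0.15, against -0.0047), where 16.6% of all genes were lower and 13.9% higher. The smallest p-values were those of Chsy3 at -1.12 ± 0.074, a chain polymerase, Dsel at -0.88 ± 0.064, an epimerase-like protein of dermatan sulfate, Xylt2 at 0.64 ± 0.066, a xylosyltransferase that starts the chain, and Chsy1 at -0.39 ± 0.052. With Ang II, 9 were lower and 2 higher, where 22.2% of all genes were lower and 17.9% higher. The 4 named calls in PBS held with any 1 array left out. Of 6 keratan sulfate enzymes, 2 were lower in PBS, B3gnt2 at -0.33 ± 0.051 and B4galt4 at -0.32 ± 0.064, and the B4galt4 call was lost without siGiver PBS replicate 1.

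Among 19 ligands and receptors known to bind members of the family, 4 were higher and 7 lower in siGiver cells in PBS (median -0.093, against -0.0047), where 13.9% of all genes were higher and 16.6% lower. Tgfb3 was higher by 0.96 ± 0.047 and Bmp4 by 0.57 ± 0.058, and Tgfbr1 was lower by -0.76 ± 0.061 and the purinergic receptor gene P2rx4 by -0.68 ± 0.056. With Ang II, 8 were higher and 5 lower (median 0.022, against -0.026), where 17.9% of all genes were higher and 22.2% lower. Tgfb3 was then higher by 1.44 ± 0.047 and Tgfb2 by 0.66 ± 0.055, and Tlr2, whose product binds biglycan, was lower by -0.87 ± 0.049 and P2rx4 by -0.79 ± 0.056.

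The remaining lists were read in PBS against the same shares of all genes, 13.9% higher and 16.6% lower. Of 9 proteases, 1 was lower in PBS, Bmp1, which trims the propeptides of several of these proteoglycans, at -0.25 ± 0.063, a call lost without siNTC PBS replicate 1 or either siGiver PBS array. Of 8 cross-linking enzymes, Plod2 (1.09 ± 0.052) and Plod1 (0.41 ± 0.056) were higher and Lox (-0.63 ± 0.048) was lower in PBS. Of 17 other proteoglycans, 8 were higher and 5 lower in PBS, with Gpc6 at 0.73 ± 0.055, Esm1 at -0.38 ± 0.047, Sdc1 at 0.42 ± 0.057 and Gpc1 at -0.28 ± 0.052.

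Markers of other cell types were read beside these results, and their part in them was not tested. In bulk RNA, fewer cells of a type and less RNA per cell cannot be told apart. The mean log2 level of 7 adventitial fibroblast markers lay at 7.66 on both siNTC PBS arrays, 7.45 and 7.51 with Ang II, 7.72 and 7.76 in siGiver PBS, and 7.61 and 7.64 in siGiver Ang II. It was thus lowest in the siNTC Ang II group, as were Dcn, Lum, Fmod and Bgn, with Pdgfra at -0.38 ± 0.053 and Scara5 at -0.39 ± 0.076 in siNTC cells after Ang II. The Pdgfra call was lost without siNTC PBS replicate 1 or either siNTC Ang II array, and the Scara5 call with any 1 of the 8 arrays left out. Pdgfra also fell with Ang II in siGiver cells, by -0.48 ± 0.053, where Dcn did not pass. Scara5 means in siGiver cells were 7.69 with PBS and 7.71 with Ang II. With Ang II, Scara5 was higher in siGiver than in siNTC cells by 0.43 and Mfap5 by 0.32. These were 2 of the 7 fibroblast markers, with 0 called lower, where 17.9% of all genes were higher and 22.2% lower. With Ang II, Cspg4 was higher in siGiver cells by 0.80 ± 0.060 and Abcc9 by 0.26 ± 0.082, which are 2 of the 4 pericyte markers past the filter, and the mean of the 5 on the array was 6.65 to 6.66 against 6.26 to 6.34 in siNTC cells. The interaction was called for Cspg4 at 0.60 ± 0.085, in 3 of the 8 fits with 1 array left out. Of 4 macrophage markers past the filter, Cd14 was lower in the same contrast by -0.45 ± 0.057 and Cd68 by -0.60 ± 0.20, and the interaction was called for Cd14 at -0.40 ± 0.081. The Abcc9 call held in 2, the Cd68 call in 1 and the Cd14 interaction in 0 of the 8 fits with 1 array left out. The Cd68 mean in siGiver cells with Ang II was 4.71, below the filter value. The other macrophage markers past the filter, C1qa and Aif1, were not called. C1qa means were 4.88 in siNTC and 4.99 in siGiver cells with Ang II. In PBS Cspg4 was also called higher, by 0.20 (limma adjusted p 0.0436), where Dcn, Fmod, Lum and Bgn were not called. Cspg4, Abcc9, Cd14 and Cd68 differed with Ang II, in the contrast in which Dcn, Fmod, Lum and Bgn were higher. In that contrast 17.9% of all genes were called higher and 22.2% lower. The mean of 9 smooth muscle markers in siGiver cells was 10.59 in PBS and 10.64 to 10.66 with Ang II. In siNTC cells it was lower, at 10.30 to 10.34 and 10.24. Of the 9, 6 were called higher and 1 lower in PBS, where 13.9% of all genes were higher and 16.6% lower. With Ang II, 7 were higher and 1 lower, against 17.9% and 22.2%. The lower marker was Des, at -0.39 in PBS and -0.42 with Ang II. All 6 endothelial markers on the array stayed under the filter value, with means between 3.8 and 3.97.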

How the data were processed

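RNA was measured on Affymetrix arrays with 5 ug of biotin-labelled total RNA each, per the labels' protocols. The deposited values are log2 expression, 1 per probe set and array, and the submitters' processing notes name RMA (background correction, quantile normalization and 1 summary per probe set) and Partek, with versions not given in the sources used here. Arrays have no read depth, and their number limits the precision.

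Gene names come from GEO's array annotation, updated by gene identifier to RefSeq symbols (20758 of 20826 with 1 symbol matched). Limma 3.58.1 in R 4.3.3 fitted 4 group means to all 8 arrays (4 residual and 3.40 prior degrees of freedom), tested 5 contrasts over 21729 probe sets and adjusted p-values by Benjamini-Hochberg. Giver itself has no annotated probe set here, and its level was not analysed. The members and gene lists were chosen with earlier results of these data known. Named genes are all 8 members, up to 4 per list with the smallest p, and the 3 nearest in group means per member, of which the text names some. Alternatives were other filters, 1 value per gene (brightest probe set or mean), cyclic loess, array medians subtracted, trended robust moderation, a replicate block and leaving out each array. The script was tested on simulated data. Scan batches were not known and not tested.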

Additional observations from a re-analysis of the deposited data

Results flagged for a closer look

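The Ang II response differed between the siRNA arms for 2 probe sets by limma's interaction term. Dcn (1370956_at) had an interaction of 0.39 on the log2 scale, with Ang II differences of -0.42 in siNTC cells and -0.03 in siGiver cells. Ogn (1376749_at) had an interaction of 0.46, with Ang II differences of -0.46 and -0.0033. The other Ogn probe sets stood at 0.20 to 0.35, in the same direction. Neither Dcn nor Ogn was called with any 1 of the 8 arrays left out.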

How the results depend on the processing

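Of 910 member values under alternatives, 810 kept their direction and their side of the threshold, 59 kept their direction and lost the call, 24 gained one and 17 changed sign. The 810 include values called in neither fit. They also include differences that leaving out an array could not change, because that array's group was not compared. The values that changed sign were not called in either fit. Averaging probe sets turned Aspn to -0.10 for Ang II in siNTC cells (1381504_at at 0.02) and to 0.025 for the interaction (-0.35). Subtracting array medians turned Ogn for Ang II in siGiver cells to 0.023 on 1376749_at and 0.010 on 1383263_at. With 1 array left out, Aspn 1381504_at ran from -0.011 to 0.055 for Ang II in siNTC cells. For Ang II in siGiver cells Dcn ran from -0.071 to 0.016, Ogn 1376749_at from -0.042 to 0.035 and Ogn 1390450_a_at from -0.12 to 0.043. Fmod ran from -0.033 to 0.16 for siGiver in PBS, Ogn 1383263_at from -0.0017 to 0.0066 and Ogn 1390450_a_at from -0.074 to 0.089 for siGiver with Ang II, and Prelp from -0.033 to 0.083 for the interaction. With no filter, all calls went from 852 to 423 for Ang II in siNTC cells, from 2764 to 1732 for Ang II in siGiver cells and from 730 to 339 for the interaction, and member calls went from 1 to 0 and from 2 to 0 in the last pair. The filter at the 50th percentile gave 1529 calls for Ang II in siNTC cells (members 6 rather than 3) and 1269 for the interaction, and 0 members for Ang II in siGiver cells, where it tested 10 of the 12 and left out both Aspn probe sets. Trended, robust moderation gave 2260, 4352 and 1901 calls in the same order, with 8 members in siNTC cells and 6 for the interaction. Dcn was not among these 6. The brightest probe set per gene gave 3986 calls for siGiver in PBS (from 6042, members 3 rather than 7), 5037 with Ang II (from 7751) and 1 member for the interaction. Averaging the probe sets of a gene gave 3754 (members 4), 4880, and 0 members for Ang II in siGiver cells. These 2 settings test fewer features.

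Leaving out 1 array gave 138 to 727 calls for Ang II in siNTC cells (members 0 to 2), 1038 to 2382 in siGiver cells (0 to 1), 3753 to 5849 for siGiver in PBS (4 to 7) and 207 to 520 for the interaction (0 throughout). In siNTC cells any 1 of their arrays, in siGiver cells any 1 of theirs, and for siGiver in PBS siGiver PBS replicate 1, moved the count by over 1.5 times. A group left with 1 array is assumed to vary like the others. With replicate number as a block, interaction calls fell to 451 and members to 0. Replicate differences correlated at -0.14 to 0.098 between groups, so the numbers were not shown to pair arrays. The cause of these shifts was not tested. Scaling moved the median of all probe sets by under 0.1.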
